A study of Mus musculus with 8 samples.

Results

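The 10 genes Marco, Chil3, Siglecf, Ear1, Ear2, Krt79, Plet1, Pparg, Abcg1 and Itgax, which are commonly used to mark alveolar macrophages in mouse lung, were followed across whole-lung RNA-seq libraries from mice with K-ras-driven lung tumors. They were taken by gene symbol from the gene count table, and each symbol matched 1 row of the 54532 genes in it. All 10 passed the filter on low counts that left 17138 genes for testing, so none was lost to low expression.

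Alveolar macrophages are the resident phagocytes of the airspaces. They are known to arise from fetal monocytes that settle in the lung around birth, where GM-CSF and TGF-β induce the nuclear receptor PPAR-γ, and PPAR-γ in turn drives genes for the uptake, storage and export of surfactant lipid. Loss of GM-CSF signaling or of PPAR-γ leaves these cells foamy and surfactant accumulates. STAT3, the target of TTI-101, carries signals of IL-6 and related cytokines in tumor cells and in myeloid cells.

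The libraries came from whole lung of CC-LR mice, in which Cre recombinase expressed from the club cell secretory protein (CCSP) locus switches on the LSL-K-rasG12D allele, so that the oncogene is active in club cells and their progeny. All 8 mice carried both alleles on a C57BL/6 background and were 14 weeks old. The 4 mice labelled Control were compared with 4 mice given TTI-101, a small-molecule STAT3 inhibitor, for 4 weeks, and the comparison asked how STAT3 inhibition changed the transcriptome of the tumor-bearing lung. Neither the dose, the route nor the sex of each mouse is given by the labels, which number the samples without naming animals, so p-values measure only the spread between these samples. According to the methods, lungs frozen for RNA came from mice that were first lavaged and then perfused. Lavage removes airspace macrophages, the labels do not record it for each library, and its part in any value below was not tested.

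Libraries held 16075855 to 26873509 counts, with control mouse 1 and TTI-101 mouse 1 the deepest. Mitochondrial genes took 2.01 to 2.85% of counts in 7 libraries and 5.56% in control mouse 4, which also lay at 101 on the first principal component (45.2% of the variance) while the other libraries lay between -39.3 and 17.9. Markers of lung epithelium and endothelium were abundant in every library, with a summed level of 30192 to 73350 CPM (counts relative to the library total, scaled for library composition). Pan-macrophage and leukocyte genes were also present in every library at a summed 363 to 849 CPM.

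Promoter sequence is shown for the members whose values the results turn on, because Ear1 and Ear2 are close copies. It is also shown because PU.1 and STAT motifs mark the factors of this lineage and of the drug target. Windows of 250 bases before the annotated start were found in RefSeq (build GRCm38.p6) for 9 of the 10 members, all but Abcg1. The eosinophil-associated ribonucleases Ear1 and Ear2 lie near each other on chromosome 14, and their windows were near-copies: 246 of 248 aligned bases were identical (99.2%), with the 2 differing bases in capitals. As counted, the Ear1 gene spans 43818765 to 43875517 on the minus strand. The Ear1 window therefore lies inside the counted gene, before a RefSeq start within it. The Ear1 window is chr14:43819640-43819889 on the minus strand and the Ear2 window is chr14:44102404-44102653 on the plus strand, both written 5′ to 3′.
Ear1: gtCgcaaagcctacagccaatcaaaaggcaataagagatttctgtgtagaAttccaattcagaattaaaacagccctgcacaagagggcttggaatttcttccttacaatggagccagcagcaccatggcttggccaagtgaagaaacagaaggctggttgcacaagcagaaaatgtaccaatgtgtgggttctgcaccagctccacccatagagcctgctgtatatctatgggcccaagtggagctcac
Ear2: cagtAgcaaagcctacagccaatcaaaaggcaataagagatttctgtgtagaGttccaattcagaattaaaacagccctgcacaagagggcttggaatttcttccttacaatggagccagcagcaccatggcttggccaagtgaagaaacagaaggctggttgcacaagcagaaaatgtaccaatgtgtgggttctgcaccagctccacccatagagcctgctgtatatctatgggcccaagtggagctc

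Among the members, only the Chil3 window (chr3:106167565-106167814, minus strand) held the STAT motif TTCNNNGAA, which reads the same on both strands and occurs in 7.02% of all 32851 promoter windows. It lay 172 to 164 bases before the start and is in capitals.
Chil3: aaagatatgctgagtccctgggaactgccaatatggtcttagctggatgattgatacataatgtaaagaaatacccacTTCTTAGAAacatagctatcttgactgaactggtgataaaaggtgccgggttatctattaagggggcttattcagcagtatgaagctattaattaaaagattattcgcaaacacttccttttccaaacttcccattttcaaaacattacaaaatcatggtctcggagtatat
The members had 11 windows in all, as Pparg had more than 1. The PU.1 core GAGGAA, searched on both strands, was held by 23.3% of all windows. It occurred in 3 member windows, 1 each for Marco, Pparg and Siglecf. In Siglecf (chr7:43351091-43351340, plus strand) it lay on the strand opposite to the gene, 65 to 60 bases before the start, and is in capitals as read on the gene's strand.
Siglecf: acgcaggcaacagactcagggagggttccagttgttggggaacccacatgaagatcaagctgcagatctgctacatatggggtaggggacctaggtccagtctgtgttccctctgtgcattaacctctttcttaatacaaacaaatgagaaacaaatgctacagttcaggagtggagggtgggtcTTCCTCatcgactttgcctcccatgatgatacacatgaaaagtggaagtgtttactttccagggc
The aryl hydrocarbon receptor core GCGTG (28.2% of all windows) occurred in 2 member windows, that of Itgax and another of Pparg. The E-box CACGTG (6.02%) occurred in 0 member windows. Direct repeats bound by PPAR-RXR and by LXR-RXR, present in 0.0335% and 0.0152% of all windows, occurred in 0 member windows as well. These matches describe letters in the windows and say nothing of binding.

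In the comparison of TTI-101 with control, 0 of the 10 members passed an adjusted p of 0.05 by edgeR's quasi-likelihood test, as did 0% of all genes tested. At an unadjusted p under 0.05 the members counted 0 as well, against 6.61% of all genes tested. DESeq2 called 4 genes at an adjusted p under 0.05 (0.0126%), of which 0 were members. Fitted log2 fold changes were above 0 for 8 members and below 0 for 2, with a median of 0.26, against 50.6% above 0 and a median near 0 for all genes tested. The members' median was 0.039 without TTI-101 mouse 3, the lowest with any 1 library left out. In whole lung, fewer cells of a type and less RNA per cell cannot be told apart, and this holds for every level given here.

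**Figure D1:**
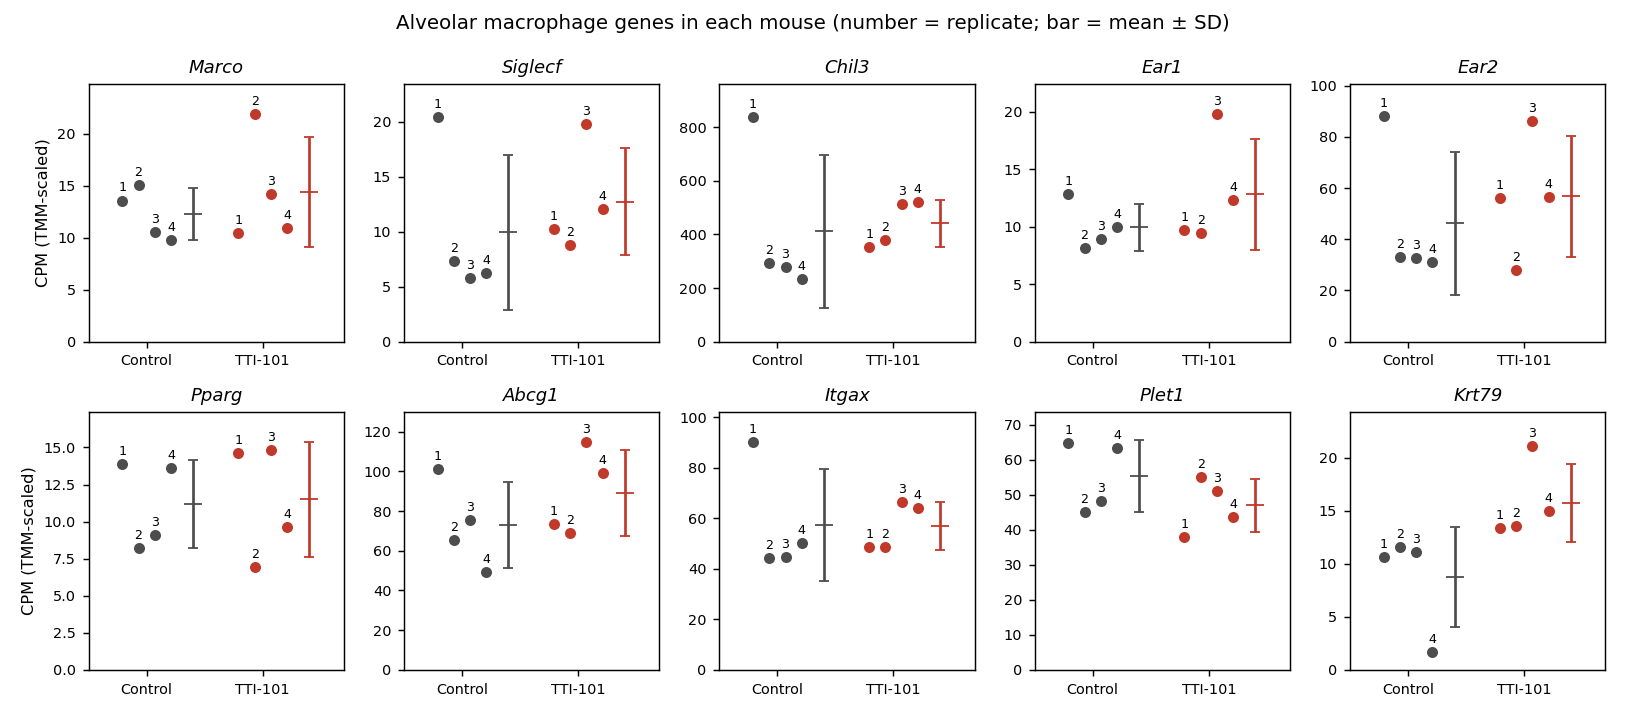
Level of each of the 10 genes in each mouse, in CPM scaled for library composition, with the replicate number beside each point and the group mean ± SD as a bar (4 control mice, 4 TTI-101 mice). Control mouse 1 stands above the other controls for Chil3 (839.7 CPM), Siglecf, Ear2 and Itgax, and control mouse 4 stands below all others for Krt79 (1.66 CPM).

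Marco, Siglecf and Chil3 belong to the recognition and secreted-lectin genes of these cells. Marco (ENSMUSG00000026390, chromosome 1), a class A scavenger receptor for inhaled particles and bacteria, was at 13.6, 15.1, 10.5 and 9.79 CPM in the 4 control mice and at 10.4, 21.9, 14.2 and 10.9 CPM in the 4 treated mice. The groups overlapped, and treated mouse 2 alone stood above all controls. The log2 fold change was 0.23 (SE 0.27, 95% interval -0.36 to 0.82) with an edgeR adjusted p of 0.799.

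Siglecf (ENSMUSG00000039013, chromosome 7) encodes a sialic acid-binding inhibitory lectin found on alveolar macrophages and eosinophils. It was at 20.5 CPM in control mouse 1 and at 7.29, 5.83 and 6.20 CPM in the other controls, against 10.3, 8.77, 19.8 and 12.1 CPM with TTI-101. All 4 treated mice lay above control mice 2 to 4 and below control mouse 1. Over all 8 mice the log2 fold change was 0.35 (SE 0.43, 95% interval -0.60 to 1.29, edgeR adjusted p = 0.812).

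Chil3 (ENSMUSG00000040809, chromosome 3) encodes the chitinase-like lectin Ym1, a secreted protein abundant in alveolar macrophages and also made by immature neutrophils. Its level was 839.7 CPM in control mouse 1 and 294, 278 and 233 CPM in the other controls, and 353, 380.2, 514 and 521 CPM in the treated mice. As for Siglecf, the treated mice fell between control mouse 1 and the rest of the controls. The group means were 411 ± 287 and 442 ± 87.8 CPM (SD, n = 4 each), and the log2 fold change of 0.10 (SE 0.38, 95% interval -0.74 to 0.95) had an edgeR adjusted p of 0.948. Of the 100-base windows of its longest coding transcript, 5.42% also occurred in another gene, the paralog Chil4 or Gm6522, and Chil4 was at 0 to 1.02 CPM.

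Ear1 and Ear2 encode secreted ribonucleases of the RNase A family, made by alveolar macrophages and eosinophils. Ear1 (ENSMUSG00000072601) was at 12.8, 8.13, 8.88 and 9.98 CPM in control mice and at 9.68, 9.43, 19.8 and 12.3 CPM in treated mice. The groups overlapped, with treated mouse 3 above all other mice, and the log2 fold change was 0.36 (SE 0.27, 95% interval -0.24 to 0.96, edgeR adjusted p = 0.702). Ear2 (ENSMUSG00000072596) was at 88.2 CPM in control mouse 1, within 31.1 to 33.0 CPM in the other controls, and at 56.3, 28.1, 86.1 and 56.4 CPM in the treated mice. Treated mice 1, 3 and 4 exceeded control mice 2 to 4, and treated mouse 2 lay below every control. Its log2 fold change was 0.29 (SE 0.40, 95% interval -0.59 to 1.17, edgeR adjusted p = 0.833).

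The RefSeq promoter windows of this pair are near-identical, and that of Ear1 lies inside the counted gene. As counted, Ear1 overlaps the pseudogenes Ear-ps9 and Ear-ps12 on its own strand, whereas Ear2 overlaps no gene on its strand. What these overlaps do to the counts was not tested. Ear2 exceeded Ear1 in all 8 libraries, by 2.98 to 6.89 times in counts. The transcripts share 96.8% of their aligned bases. Windows of 100 bases that also occur in another gene made up 23.9% of the Ear1 transcript, shared with Ear-ps9 and Ear10, and 13.9% of the Ear2 transcript, shared with Ear-ps2 and Ear10, so the split of reads within this family is uncertain. Across the 8 mice the pair varied together (Pearson r = 0.81 of log2 CPM).

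Pparg and Abcg1 are the members of the lipid axis. Pparg (ENSMUSG00000000440, chromosome 6), the nuclear receptor that fixes alveolar macrophage identity and is also expressed in adipocytes and epithelium, was at 13.9, 8.19, 9.10 and 13.6 CPM in controls and at 14.6, 6.91, 14.8 and 9.61 CPM with TTI-101. The groups overlapped over nearly their whole range, with a log2 fold change of 0.038 (SE 0.29, 95% interval -0.60 to 0.68, edgeR adjusted p = 0.978). Abcg1 (ENSMUSG00000024030, chromosome 17), the PPAR-γ and LXR target that exports cholesterol to lipoproteins, was at 101, 65.3, 75.3 and 49.5 CPM in controls and at 73.3, 69.1, 115 and 99.3 CPM in treated mice. Again the groups overlapped. The log2 fold change was 0.29 (SE 0.24, 95% interval -0.23 to 0.81, edgeR adjusted p = 0.718).

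Itgax (ENSMUSG00000030789, chromosome 7) encodes the integrin subunit CD11c, shared by alveolar macrophages and dendritic cells. It was at 90.1 CPM in control mouse 1 and at 44.2, 44.5 and 50.3 CPM in the other controls, while treated mice had 48.8, 48.6, 66.5 and 63.9 CPM. Control mouse 1 was thus the highest of all 8 mice, and the log2 fold change was -0.010 (SE 0.24, 95% interval -0.54 to 0.52, edgeR adjusted p = 0.994).

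Plet1 (ENSMUSG00000032068, chromosome 9), a lipid-anchored surface protein of epithelial progenitors and of mouse alveolar macrophages, was at 64.9, 45.0, 48.3 and 63.4 CPM in controls and at 38.0, 55.2, 51.1 and 43.7 CPM in treated mice. It had the lowest log2 fold change of the members, -0.24 (SE 0.17, 95% interval -0.62 to 0.15, edgeR adjusted p = 0.696), with overlapping groups. Its antisense partner Plet1os was at 1.89 to 5.12 CPM, and the strand setting of the counting is not given in the sources used here.

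Krt79 (ENSMUSG00000061397, chromosome 15), a type II keratin used as a marker of mouse alveolar macrophages, was the member whose groups did not overlap. It was at 10.7, 11.6, 11.1 and 1.66 CPM in control mice and at 13.4, 13.5, 21.1 and 15.0 CPM in treated mice, with means of 8.76 ± 4.74 and 15.7 ± 3.66 CPM (SD, n = 4 each). Groups failed to overlap in 2.96% of all genes tested. The log2 fold change was 0.84 (SE 0.46, 95% interval -0.18 to 1.86) with an edgeR unadjusted p of 0.0966 and an adjusted p of 0.657. The two-sided exact permutation test over the 70 assignments of mice gave an unadjusted p of 0.0286, the smallest it can give. Groups without overlap always give this value, so it restates the lack of overlap. The lowest p of this test among the other members was 0.229, for Plet1. Without control mouse 4, in which the gene had 26 counts, the log2 fold change was 0.51 with an edgeR unadjusted p of 0.0315, and 3.03% of all genes tested passed that threshold there.

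Control mouse 1 stood high for several members. It was the highest of the 4 controls for 8 of the 10 members, a count that was not made over all genes tested. It was the highest of all 8 mice for 5 members, Chil3, Siglecf, Ear2, Plet1 and Itgax, against 6.58% of all genes tested. Its level was over 1.5 times the mean of control mice 2 to 4 for 5 members (11% of all genes tested), by 3.18 times for Siglecf, 3.13 times for Chil3, 2.73 times for Ear2, 1.94 times for Itgax and 1.60 times for Abcg1. For Ear1, Pparg and Krt79 the ratio was 1.42, 1.35 and 1.32, for Plet1 1.24 and for Marco 1.15, and the median over all genes tested was 0.999. Other lists were high in it as well. The median ratio was 1.54 for 16 other genes of alveolar macrophages, 1.46 for phagocyte receptors, 1.71 for pan-macrophage and leukocyte genes, 2.59 for neutrophil markers, 1.99 for T cell markers, 1.81 for B cell markers and 1.41 for monocyte markers, so the high level was not particular to the members. Interstitial macrophage markers had a median ratio of 0.908, dendritic cell markers one of 1.07 and erythroid genes one of 0.986.

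Without control mouse 1, 9 members had a fold change above 0 and the median log2 fold change was 0.50, against 0.0095 for all genes tested. At an unadjusted p under 0.05 the members then counted 3, all higher with TTI-101, against 13.7% of all genes tested in either direction and 7.15% higher. They were Chil3 (log2 fold change 0.72, SE 0.20, edgeR adjusted p = 0.296), Siglecf (0.98, SE 0.30, adjusted p = 0.296) and Ear2 (0.81, SE 0.31, adjusted p = 0.311). All 4 treated mice lay above control mice 2 to 4 for Chil3, Siglecf and Krt79, as they did for 5.44% of all genes tested. Of the members, 0 passed an adjusted p of 0.05 in this fit too, as did 0.00575% of all genes tested. This selection of mice followed from the values and is given as a description.

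**Figure D2:**
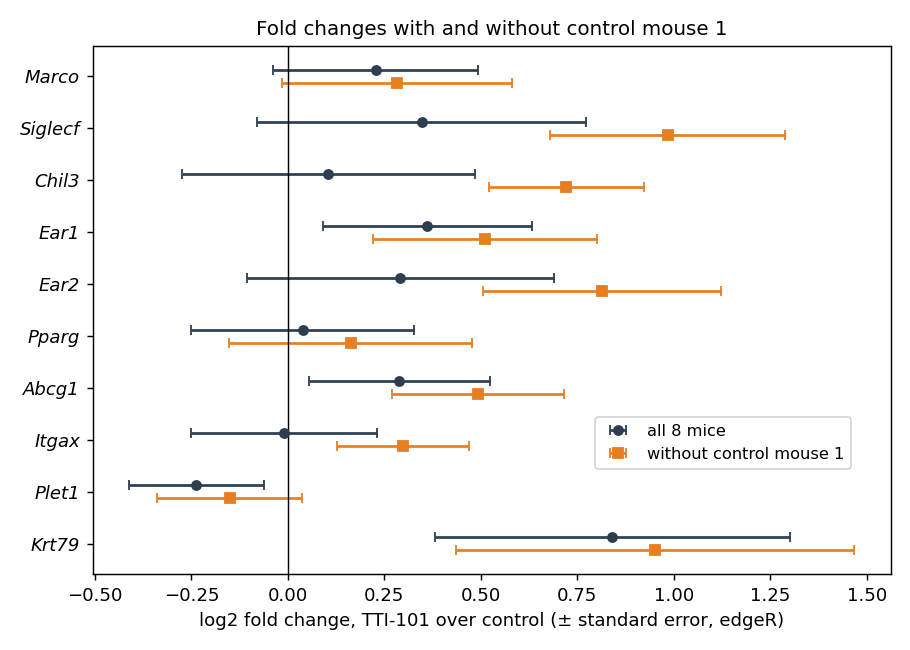
Log2 fold change of each member, TTI-101 over control, with its standard error from edgeR, for all 8 mice (circles) and without control mouse 1 (squares). The largest shifts are those of Chil3 (0.10 to 0.72), Siglecf (0.35 to 0.98) and Ear2 (0.29 to 0.81), while Marco, Krt79 and Plet1 move little.

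Markers of eosinophils, which share Siglecf, Ear1 and Ear2, were low, and of the 5 listed only Ccr3 and Il5ra passed the filter on low counts. Ccr3, the eotaxin receptor, had 69 counts in control mouse 1 and 0 in the other controls, and 51, 3, 62 and 57 counts in the treated mice. Il5ra, the receptor subunit for IL-5, had 73, 3, 8 and 4 counts in controls and 111, 21, 53 and 30 counts in treated mice, with a log2 fold change of 1.45 (edgeR adjusted p = 0.657). The 5 eosinophil markers summed to 0.256 to 5.54 CPM in control mice and 2.64 to 7.34 CPM in treated mice, and 0 of them were at 0 in every library. Among the eosinophil granule genes Epx had at most 3 counts in a library and 0 in control mouse 1, Prg3 had 1 count in treated mouse 3 and 0 elsewhere, and Prg2 had 9, 4, 4 and 0 counts in controls and 6, 19, 13 and 1 in treated mice, so these 3 did not share the order of Ccr3 and Il5ra. What part eosinophils had in the values of Siglecf, Ear1 and Ear2 was not tested.

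Per kilobase of the gene length in the table, Chil3 was the highest member at 252 ± 176 CPM per kilobase in control mice and 271 ± 53.8 in treated mice (SD, n = 4 each). Ear2 came next with 64.3 ± 38.9 and 78.9 ± 32.9 CPM per kilobase, then Plet1 (28.4 ± 5.24 and 24.1 ± 3.92) and Abcg1 (17.9 ± 5.36 and 21.9 ± 5.35). Ear1, Itgax and Marco followed at 13.6 ± 2.81, 11.9 ± 4.59 and 6.36 ± 1.30 CPM per kilobase in controls. Pparg (3.79 ± 1.01), Siglecf (3.57 ± 2.52) and Krt79 (1.84 ± 0.998) were the lowest. Chil3 exceeded Ear2, and Ear2 exceeded Plet1, in all 8 libraries. Plet1 exceeded Abcg1 in 6 libraries, and Siglecf exceeded Pparg in 4, so these neighbors were within their spread.

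Across the 8 mice 6 of the members shared a pattern. The Pearson correlation of a member's log2 CPM with the mean of the other 9 was 0.98 for Siglecf, 0.91 for Chil3, 0.88 for Ear2, 0.88 for Itgax, 0.84 for Abcg1 and 0.81 for Ear1. It was 0.39 for Krt79, 0.34 for Pparg, 0.11 for Plet1 and 0.08 for Marco. Without control mouse 1 the correlations of these 6 members lay between 0.82 and 0.97, so that the pattern was also present among the other 7 mice. All points come from the same dissections and share depth and composition, and these are descriptions over 8 libraries. The 45 pairs of members had a median r of 0.45 (-0.55 to 0.93), and 0.47 with each group centered on its own mean. Among the treated mice, mouse 3 was the highest in 7 of the 10 members, a count that was not made over all genes tested.

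The non-member genes closest to the members' mean were Gusb (r = 0.97), Cd68 (0.97), Eepd1 (0.96), Mettl8 (0.95), Ptpn7 (0.95), Galnt11 (0.95), Zfp747 (0.94), Apobr (0.93), Actr8 (0.93) and Uvrag (0.93), out of all tested genes with a mean of at least 1 CPM. Cd68 encodes a lysosomal glycoprotein of macrophages and Gusb the lysosomal β-glucuronidase. Cd68 was at 57.0 CPM in control mouse 1, at 20.9, 24.4 and 21.7 CPM in the other controls, and at 27.5, 23.1, 61.5 and 41.7 CPM in treated mice, with control mouse 1 and treated mouse 3 again the highest. Apobr encodes a macrophage receptor for apolipoprotein B-containing lipoproteins.

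**Figure D3:**
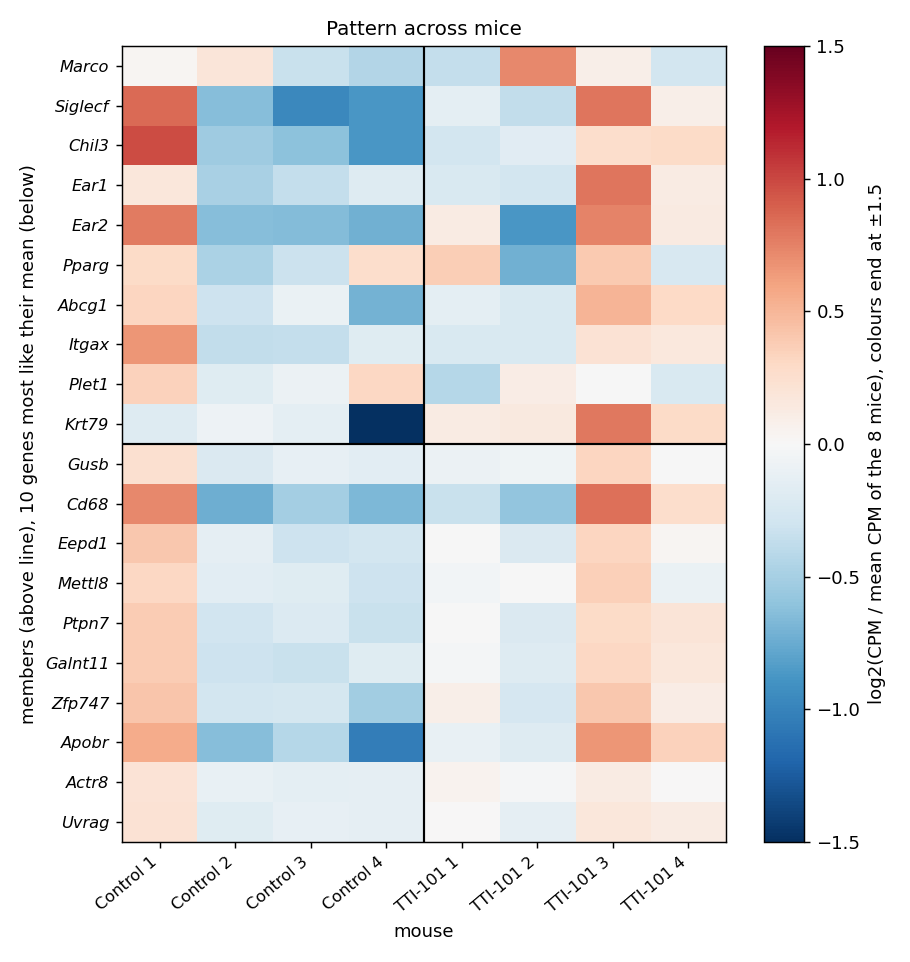
Level of each member (above the line) and of the 10 genes most like their mean (below) in each mouse, as the log2 of CPM over the mean of the 8 mice, with colors ending at ±1.5. Control 1 and TTI-101 mouse 3 are red for Siglecf, Chil3, Ear2 and Cd68, and Krt79 is darkest in control 4.

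Of 18 other genes of resident alveolar macrophages, none of them a member, 16 were tested. Of these, 10 had a fold change above 0 and 6 below, with a median log2 fold change of 0.077. An unadjusted p of 0.05 was passed by 1 of them, against 6.61% of all genes tested. Without control mouse 1 the list had 13 above 0, a median of 0.35 and 4 genes at an unadjusted p under 0.05. In that fit 13.7% of all genes tested passed the same threshold. Without control mouse 4 the list had 8 above 0 and a median of -0.0013. The gene that passed with all mice was Cidec, a lipid droplet protein, at 13.0, 14.4, 10.1 and 3.39 CPM in controls and 21.5, 21.6, 30.4 and 14.0 CPM in treated mice (log2 fold change 1.09, SE 0.39, edgeR adjusted p = 0.657). Fabp4, a fatty acid-binding protein, had a log2 fold change of 1.33 and Fabp1 one of 0.83 (edgeR adjusted p = 0.657 and 0.681), and the receptor tyrosine kinase Axl, which clears dying cells, one of 0.31 (edgeR adjusted p = 0.674). Fabp4 and Cidec are also adipocyte genes, and the adipocyte markers Plin1 and Adipoq had log2 fold changes of 2.00 and 2.10 (edgeR adjusted p = 0.657 for both). Adipocyte markers summed to 10.6 to 95.7 CPM in controls and 35.5 to 219 CPM in treated mice, and their part in Fabp4, Cidec and Pparg was not tested.

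The ligands, receptors and factors of the GM-CSF, TGF-β and PPAR-γ axis (16 genes, all tested) had 10 fold changes above 0 and 6 below, with a median of 0.20. At an unadjusted p under 0.05, 2 were lower with TTI-101, against 3.58% of all genes tested, and 0 passed adjustment. They were Bhlhe40, at 102, 78.4, 83.0 and 154 CPM in controls and 73.8, 87.2, 66.4 and 55.7 CPM in treated mice (log2 fold change -0.56, SE 0.23), and Bhlhe41, at 17.8, 20.7, 29.3 and 15.2 CPM against 14.2, 15.3, 15.9 and 12.0 CPM (log2 fold change -0.53, SE 0.22), with an edgeR adjusted p of 0.657 for both. Without control mouse 4 the log2 fold change of Bhlhe40 was -0.30, and the gene no longer passed the unadjusted threshold. That of Bhlhe41 was then -0.64, with an edgeR unadjusted p of 0.00995, and 3.03% of all genes tested passed 0.05 there. Without control mouse 1 the list had 5 genes at that threshold, 3 of them higher. In that fit 13.7% of all genes tested passed it in either direction and 7.15% were higher. Bhlhe40 and Bhlhe41 are related repressors that sustain self-renewal of alveolar macrophages, and both are also expressed in other lung cells. Stat5a and Stat5b, which act downstream of the GM-CSF receptor, had log2 fold changes of 0.43 and 0.31 (edgeR adjusted p = 0.657 for both).

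Genes of surfactant lipid uptake, storage and efflux (16, all tested) had 13 fold changes above 0 and 3 below, with a median log2 fold change of 0.28. At an unadjusted p under 0.05, 3 were higher with TTI-101 and 0 lower, a count to be read against 3.02% of all genes tested that were higher. Nr1h2, the oxysterol receptor LXR-β, was at 114, 105, 107 and 104 CPM in controls and at 122, 141, 186 and 132 CPM in treated mice, with all 4 treated mice above every control (log2 fold change 0.44, SE 0.15, edgeR adjusted p = 0.657). Treated mice likewise all lay above every control for 1.53% of all genes tested. The lipoprotein receptor Scarb1 had a log2 fold change of 0.39 and the phospholipid transfer protein Pltp one of 0.86, whereas Soat1, which esterifies cholesterol for storage, had one of -0.51 (edgeR adjusted p = 0.657 for each). Without control mouse 4, Pltp was at 0.62 and did not pass the unadjusted threshold. Without control mouse 1 the list had 7 genes past that threshold, all higher, against 7.15% of all genes tested that were higher in that fit. The genes of this list are expressed beyond macrophages.

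Scavenger, pattern recognition, Fc and complement receptors of phagocytes (15, all tested) were split, with 8 above 0 and 7 below and a median log2 fold change of 0.061. The scavenger receptor Stab1 was the 1 gene at an unadjusted p under 0.05, with a log2 fold change of 0.48, against 6.61% of all genes tested. Itgb2, Colec12 and Cd14 had values of 0.66, 0.49 and -0.60 (edgeR adjusted p = 0.657 to 0.694 over Stab1 and these genes). Without control mouse 4 Stab1 was at 0.35 and did not pass the unadjusted threshold. Without control mouse 1 the list had 3 genes past that threshold, all higher, against 7.15% of all genes tested that were higher in that fit. Among close relatives of the members, 10 of 13 were tested and 7 had a fold change above 0, with a median of 0.26. Siglecg, a lectin of B cells, was at 29.3, 15.9, 15.8 and 4.48 CPM in controls and at 42.4, 22.0, 48.8 and 39.7 CPM in treated mice, with a log2 fold change of 1.22 (SE 0.45, edgeR adjusted p = 0.657). The chitinase-like Chil1, the chitinase Chia1 and the integrin subunit Itgal had log2 fold changes of -0.69, -0.51 and 0.60 (edgeR adjusted p = 0.657 to 0.659).

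**Figure D4:**
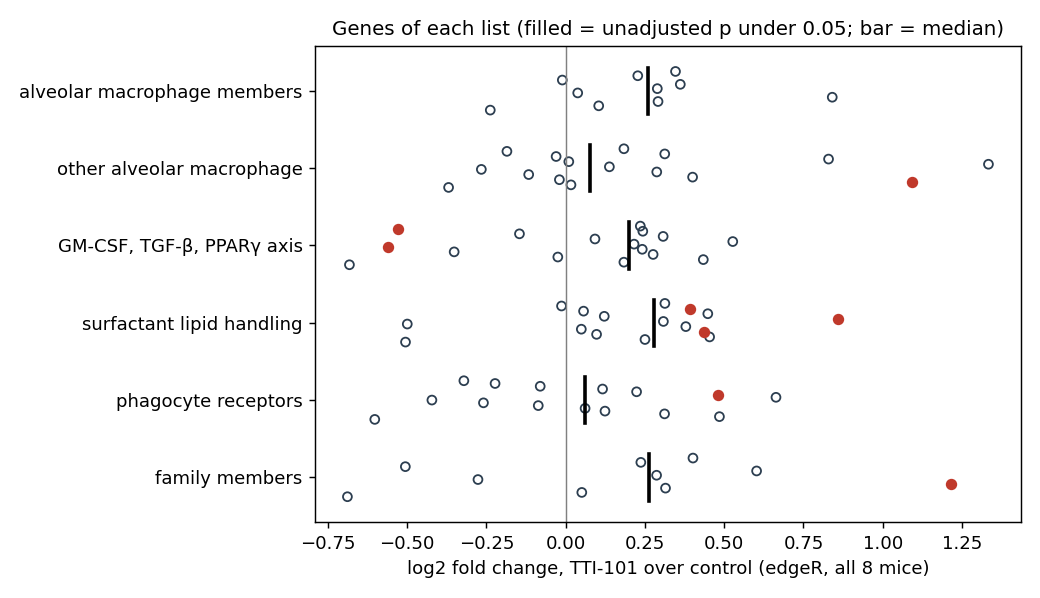
Log2 fold change, TTI-101 over control in all 8 mice, of every tested gene of the members and of the 5 other lists, with filled points at an edgeR unadjusted p under 0.05 and a bar at each list's median. The medians lie at 0.26 for the members, 0.077 for other alveolar macrophage genes and 0.28 for lipid handling, and 0 filled points are among the members.

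Markers of other cells moved beside these values. Control mouse 4, with 5.56% mitochondrial counts, set the low end of each summed control range below, except for erythroid genes, where it set the high end. Without it, dendritic cell markers had 2 of 6 fold changes above 0 and a median of -0.046, against 0.16 with all mice. The alveolar type 2 median was then -0.19, against -0.40. Pan-macrophage, B cell and T cell fold changes all stayed above 0. Pan-macrophage and leukocyte genes had 6 of 6 fold changes above 0 and a summed level of 363 to 751 CPM in controls and 486 to 849 CPM in treated mice, with the lowest p for Ptprc (log2 fold change 0.53) and Csf1r (0.36), at edgeR adjusted p of 0.679 and 0.682. Interstitial macrophage markers had 1 of 9 above 0, with Cd163 at -0.39, and summed to 282 to 503 CPM against 384 to 472 CPM. For monocytes, the summed level was 438 to 1136 CPM in controls and 1174 to 1715 CPM in treated mice, with Nr4a1 at 1.06 and Ace at 0.68. Ace, which is also an endothelial gene, made up most of that sum, at 319 to 943 CPM in controls and 981 to 1412 CPM in treated mice, and the classical monocyte genes Ccr2 and Ly6c2, named after their values were seen, were at -0.30 and -0.11. Alveolar type 2 markers, among them Lamp3 and Sftpb (-0.52 each), had 7 of 7 below 0. Dendritic cell markers, which share Itgax, summed to 64.5 to 128 CPM and 105 to 154 CPM, with Ccr7 at 1.21 and Xcr1 at -0.80, and neutrophil markers, which share Chil3, to 188 to 490 and 287 to 585 CPM, with Retnlg at 0.84 and Csf3r at 0.83. The neutrophil sum was highest in treated mouse 2, where Ltf, a granule gene also made by airway epithelium and named after its values were seen, was at 525 CPM and S100a8, Cxcr2 and Retnlg were the lowest of the treated mice, and Ltf had a log2 fold change of -0.26. B cell markers summed to 57.1 to 192 CPM in controls and 180 to 377 CPM in treated mice, with Cd79a at 1.32. T cell markers summed to 9.53 to 32.4 and 17.4 to 36.0 CPM, with Cd3e at 0.80 and Cd3g at 0.32. Erythroid genes, which follow the blood left in the tissue, summed to 58.0 to 264 CPM in controls and 205 to 1586 CPM in treated mice, with Hbb-bs at 2.46 and Hbb-bt at 2.66. Each of these log2 fold changes had an edgeR adjusted p above 0.05, and the part of these cells in the members' values was not tested.

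Read as a ratio to Ptprc, the common leukocyte gene CD45, the members had a median log2 difference of -0.24 between TTI-101 and control, against 0.26 without that ratio. Krt79 remained above 0 (0.60, two-sided exact permutation p = 0.4). The other 9 members were below 0, from -0.045 for Siglecf to -0.77 for Plet1, with exact permutation p of 0.2 to 0.857. The sign of the members' median therefore depended on whether they were read per total RNA or per Ptprc. On the former 0 members passed an adjusted p of 0.05, and on the latter 0 had an exact permutation p under it. Ptprc had the largest log2 fold change of the 6 pan-macrophage and leukocyte genes, 0.53, against 0.085 (Adgre1) to 0.40 (Tyrobp) for the others. Ratios to those other genes were not tested.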

How the data were processed

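RNA from 8 lungs (4 Control, 4 TTI-101) was sequenced paired-end from stranded poly(A) libraries. The authors deposited 1 table of raw counts per gene with gene names, positions and lengths, and the submitters' processing notes name STAR, DESeq2 and mm10 without versions. The counting tool and its strand setting are not given in the sources used here. Columns carried library names that the labels give for each sample. Libraries held 16075855 to 26873509 counts.

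Counts were tested with edgeR 4.0.16 (R 4.3.3): filterByExpr with a minimum count of 10, TMM scaling, robust quasi-likelihood test over 17138 genes, Benjamini-Hochberg adjustment at 0.05, checked on simulated data. The simulation planted log2 fold changes of 2, in either direction, in 200 genes, and edgeR recovered 190 with 8 false calls. These changes were larger than that of any member, and changes of the members' size were not simulated. CPM are TMM-scaled. Exact permutation tests (log2 CPM, prior count 2, 70 assignments) served for members only. Alternatives were DESeq2 1.42.0 (also its size factors), limma-voom 3.58.1, library totals, no filter, 10 counts in every library, a prior count of 0.5, a replicate block, a ratio to Ptprc and leaving out each library. Named genes are all members, the 4 lowest unadjusted p of each pathway list, the 2 lowest of each marker list, and the 10 genes most like the members' mean. Of the marker genes this rule names, 2 are not reported here. Members and lists were chosen with earlier results of these data known. Promoters come from RefSeq (GRCm38.p6), and transcripts for the search of shared windows from the reference annotation.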

Additional observations from a re-analysis of the deposited data

Results flagged for a closer look

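In groups of 4 mice, a library was singled out where its gap to the nearest other took a larger part of the group's range than Dixon's 95% critical value. Chance flags about 1 in 20 groups, and 6 of the 22 groups looked at were flagged, against 1.1 by chance if the groups were independent, which genes of the same libraries are not. Control mouse 1 stood apart from the other controls for Chil3 (839.7 CPM), Siglecf (20.5 CPM), Ear2 (88.2 CPM) and Itgax (90.1 CPM). It stood apart for its total of 26873509 counts as well. TTI-101 mouse 1, of nearly the same depth, was at 353 CPM for Chil3, 10.3 for Siglecf, 56.3 for Ear2 and 48.8 for Itgax. What part depth had in these values was not tested. Control mouse 4 stood apart for Krt79 (1.66 CPM). It was also the library with 5.56% mitochondrial counts.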

How the results depend on the processing

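At an adjusted p under 0.05, 0 members were called under every alternative. Genes called at that threshold numbered 0 with edgeR on all 8 mice, 4 with DESeq2 and 0 to 1 when each library was left out in turn (1 without control mouse 1 and 1 without TTI-101 mouse 3). Members at an unadjusted p under 0.05 numbered 0 with all mice and 0 to 3 with each library left out (3 without control mouse 1, 1 without control mouse 4). The members' median log2 fold change of 0.26 ran from 0.039 (without TTI-101 mouse 3) to 0.50 (without control mouse 1) with each library left out and was -0.24 as a ratio to Ptprc. The direction of Itgax (-0.010) turned with DESeq2 (0.000565), limma-voom (0.034), library totals (0.021), the replicate block (0.047) and the prior count of 0.5 (0.044), and ran from -0.11 to 0.30 with each library left out. Left-out libraries also turned Marco (-0.039 to 0.36), Chil3 (-0.080 to 0.72) and Pparg (-0.11 to 0.22). As a ratio to Ptprc, directions turned for Marco (-0.35), Chil3 (-0.25), Siglecf (-0.045), Ear1 (-0.22), Ear2 (-0.20), Pparg (-0.53) and Abcg1 (-0.23). The causes were not tested. The labels do not say whether mice with the same replicate number were paired. Deviations of same-numbered libraries correlated at 0.39, 0.08, 0.16 and 0.07, and those of differently numbered libraries at -0.42 to 0.17. A replicate block called 0 members and 0 genes at an adjusted p under 0.05. It called 1298 genes at an unadjusted p under 0.05, against 1132 without it. What same-numbered libraries share was not tested. The median log2 fold change of the lipid list was 0.35 without control mouse 1 and 0.19 without control mouse 4, 2 alternatives added after seeing the data. That of the other alveolar macrophage genes (0.077) ran from -0.0013 (without control mouse 4) to 0.35 (without control mouse 1). The number of mice limits the precision to the 95% intervals given.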
